A study of Danio rerio with 12 samples.

Results

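The genes described here are 10 components of the glucocorticoid stress axis of zebrafish: crhb, pomca, star, nr3c1, nr3c2, hsd11b2, hsd20b2, fkbp5, tsc22d3 and klf9. They were taken by gene name, each name matched 1 gene, and the 10 are part of 26873 genes in the files. All 10 had values far enough above background to be tested, as had 22320 genes in all, because each reached at least 10 normalised counts in at least 3 libraries.

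The larvae were wild type and received perfluorooctanesulfonate (PFOS), a fluorinated surfactant that persists in the environment, given as its potassium salt. Exposure ran from 2 to 5 days post fertilization, and whole larvae were collected at 5 days post fertilization, the eleutheroembryo stage. The 4 groups were a control and PFOS at 0.03, 0.3 and 1 ppm, and all of them, the control included, were in 0.2% DMSO. Each group had 3 poly-A RNA-seq libraries, each from a pool of 10 larvae, and the labels do not say whether pools came from separate clutches, so every p below measures the spread between these libraries, which may be technical.

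In fish as in mammals, corticotropin-releasing hormone from the hypothalamus makes the corticotropes of the pituitary release ACTH, which is cut from the precursor encoded by pomca. ACTH acts on the interrenal cells of the head kidney, the fish counterpart of the adrenal cortex, where the protein encoded by star moves cholesterol into mitochondria and steroid enzymes turn it into cortisol. Cortisol binds the glucocorticoid receptor (nr3c1) and the mineralocorticoid receptor (nr3c2), which switch on target genes such as fkbp5, tsc22d3 and klf9, while hsd11b2 and hsd20b2 encode enzymes that inactivate the hormone.

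Values are the authors' normalised counts, in whole numbers, whose low values are spaced like counts divided by 1 factor per library. They totalled 24061372 to 31907243 per library, and that spacing gave an estimated 21610000 to 34870000 reads. The labelled tissue, whole larvae, showed in its markers: a list of 10 skeletal muscle genes took 5.96% to 10.0% of all counts and a list of 10 epidermis genes 3.72% to 9.21%, with liver, neuron, eye and pancreas markers in every library. The 4 libraries of replicate 2 stood apart from the other 8. Their epidermis share was 6.56% to 9.21% against 3.72% to 6.37%, and their neuron marker share 0.0380% to 0.0536% against 0.0605% to 0.117%.

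None of the 10 genes passed the test at any dose. With limma and Benjamini-Hochberg adjustment over all 22320 genes, 0 of 10 were called at 0.03 ppm, where 0.0582% of all genes were, 0 of 10 at 0.3 ppm (0.13% of all genes) and 0 of 10 at 1 ppm (0.139% of all genes). The mean of the 3 doses against the control (0.188% of all genes) and a slope on the order of the 4 groups (0.0134% of all genes) also called 0 of 10. At an unadjusted p under 0.05, 0 of 10 passed at 0.03 ppm (3.49% of all genes), 0.3 ppm (2.82%), 1 ppm (4.74%) and for the mean of the doses (4.35%). For the slope 2 of 10 passed, tsc22d3 and nr3c2, beside 5.56% of all genes. Groups without overlap were seen for 1 of 10 genes at 0.03 ppm (7.4% of all genes), 0 of 10 at 0.3 ppm (7.09%), 1 of 10 at 1 ppm (8.75%) and 0 of 10 when all 9 exposed libraries were set against the controls (1.33%). The median log2 change of the 10 genes was -0.041 at 0.03 ppm, 0.061 at 0.3 ppm and 0.14 at 1 ppm, beside -0.019, -0.0064 and -0.0093 over all genes tested. All comparisons with the control share its 3 libraries.

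**Figure D1:**
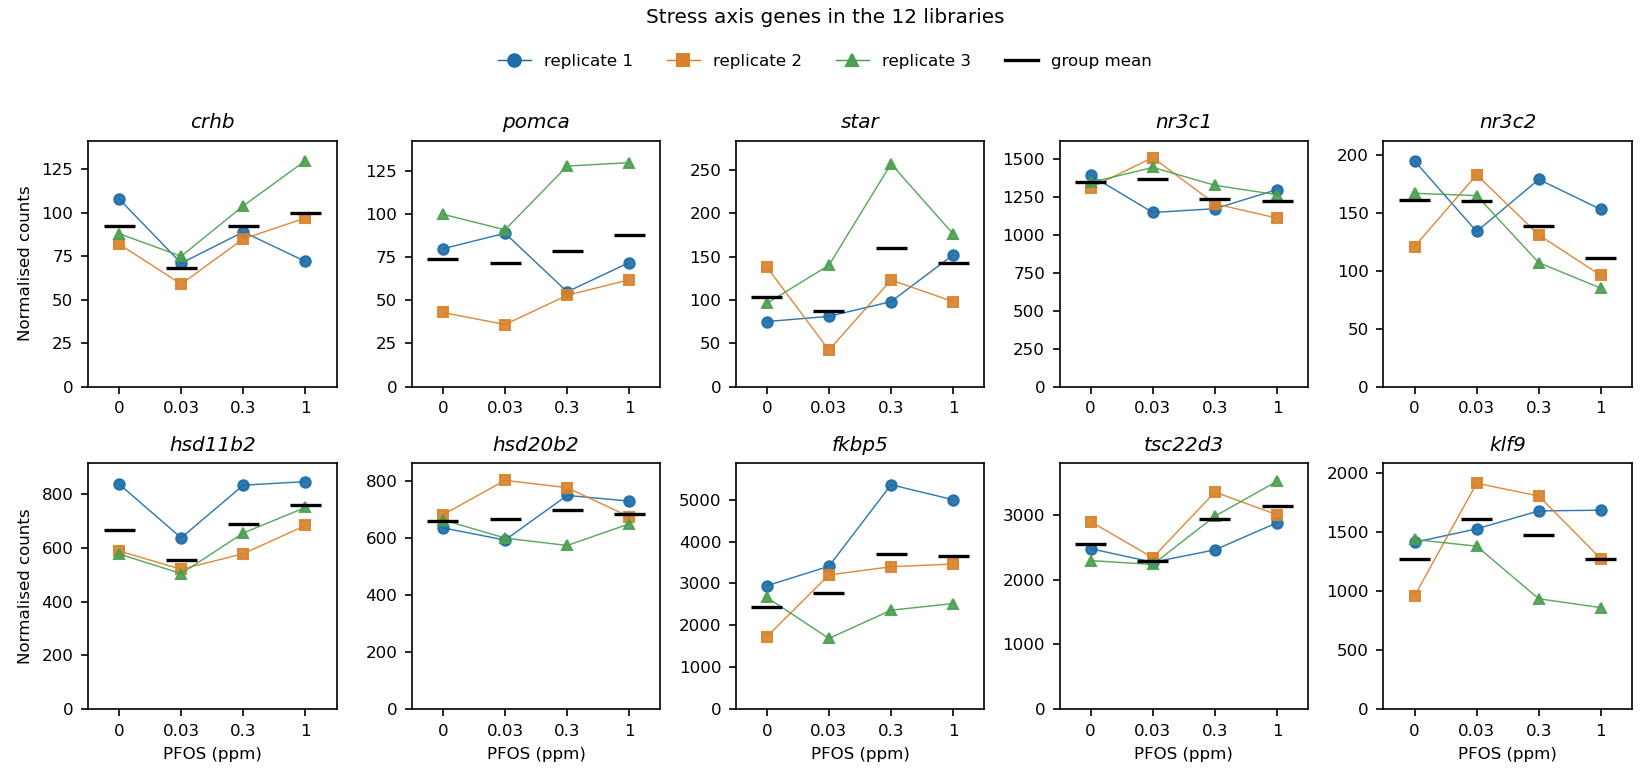
Normalised counts of the 10 stress axis genes (vertical axes, from 0) against PFOS concentration in ppm, with 0 for the control. Points are libraries, coloured by replicate number, thin lines join libraries with the same number across groups, and black bars are group means; replicate 2 is the lowest library of each group for pomca, and replicate 1 the highest of each group for hsd11b2.

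The hypothalamic signal starts the axis. crhb (ENSDARG00000027657), which encodes corticotropin-releasing hormone, had 108, 82 and 88 normalised counts in control replicates 1, 2 and 3, then 71, 59 and 75 at 0.03 ppm, 89, 85 and 104 at 0.3 ppm and 72, 97 and 130 at 1 ppm. The 3 libraries of 0.03 ppm all lay below the 3 controls, and those of 0.3 and 1 ppm overlapped the controls. Of the 10 genes, crhb was the only one with no overlap at 0.03 ppm, where 7.4% of all genes had none. Its mean was 92.7 ± 13.6 in the control (SD, n = 3) and 68.3 ± 8.33 at 0.03 ppm, a log2 change of -0.43 (SE 0.231, limma adjusted p = 0.998). At 1 ppm the mean was 99.7 ± 29.1, with a log2 change of 0.073 (adjusted p = 1). All libraries of 0.03 ppm were also below all 3 of 0.3 ppm, a lack of overlap that 4.87% of all genes showed for these groups (log2 difference 0.44, limma adjusted p = 1). Comparisons between doses were added after the values were seen, and 0 of 10 members were called at 0.3 or at 1 ppm against 0.03 ppm, where 0.00448% of all genes were in each case. By mean, the groups ran from 0.03 ppm up through the control and 0.3 ppm, both at 92.7, to 1 ppm, and no neighbours in that order differed beyond their spread under the test.

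pomca (ENSDARG00000043135), the ACTH precursor, had 80, 43 and 100 normalised counts in control replicates 1, 2 and 3, 89, 36 and 91 at 0.03 ppm, 55, 53 and 128 at 0.3 ppm and 72, 62 and 130 at 1 ppm. In every group replicate 2 was the lowest library and replicate 3 the highest, and all 4 groups overlapped. The group means were 74.3 ± 28.9, 72.0 ± 31.2, 78.7 ± 42.7 and 88.0 ± 36.7 from control to 1 ppm (SD, n = 3). At 1 ppm the log2 change was 0.25 with a 95% interval from -0.76 to 1.25 (limma adjusted p = 1), so these libraries could not resolve a change within those bounds. In whole larvae, fewer cells of a type and less RNA per cell cannot be told apart, and this holds for every gene below.

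Most of the variation in pomca lay between replicate numbers. Of its variance on the log2 scale, 78.6% lay between the 3 replicate numbers and 4.7% between the 4 groups, where the median over all genes tested was 32.3% and 19.7%. In a comparison added after the values were seen, with the group in the model, the 4 libraries of replicate 2 had 48.5 ± 11.4 normalised counts and the 8 of replicates 1 and 3 had 93.1 ± 26.0 (log2 difference -0.91, SE 0.187, limma adjusted p = 0.014). pomca was the only one of the 10 called there, and 16% of all genes were. Other brain and pituitary transcripts moved with it: 6 of the 16 tested genes of the hypothalamus and pituitary list were called lower in replicate 2, 0 were called higher, and all 16 had a value below 0. Those 6 included cpe, which encodes carboxypeptidase E (log2 difference -0.94), the prohormone convertase gene pcsk2 (-0.73), and otpb (-1.31), which encodes a homeobox factor of the hypothalamus.

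Pituitary markers were compared with pomca library by library. The list held 10 matched genes, 5 of them tested, and pitx3, which the lens also expresses, made up much of its sum, so the sum is given without it, a choice made after the values were seen. The other 9 markers, growth hormone (gh1), prolactin (prl) and the glycoprotein hormone subunit gene cga among them, summed to 103 to 159 normalised counts in replicate 2 and 167 to 291 in replicates 1 and 3. Control libraries summed to between 147 and 283, those of 0.03 ppm to between 103 and 284, those of 0.3 ppm to between 159 and 291 and those of 1 ppm to between 115 and 226. smtla, fshb, pou1f1 and lhb were at 0 in 9, 7, 5 and 2 libraries, and the other 5 were at 0 in none. The part of pituitary amount or of epidermis share in the level of pomca was not tested.

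**Figure D2:**
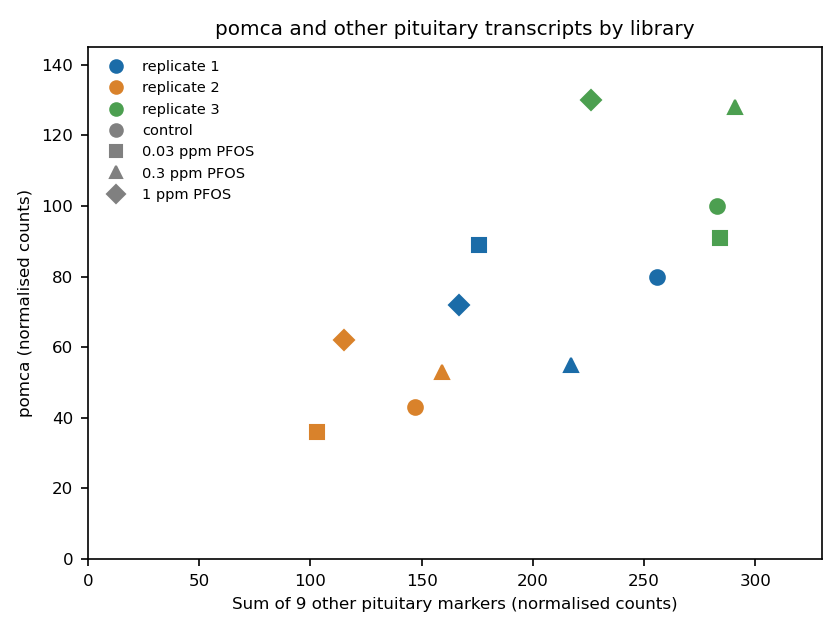
Normalised counts of pomca (vertical axis) against the summed normalised counts of 9 other pituitary markers (horizontal axis) in the 12 libraries; colour gives the replicate number and shape the group. The 4 libraries of replicate 2 lie at 103 to 159 on the horizontal axis and 36 to 62 on the vertical one, to the left of the other 8, which lie at 167 to 291 and 55 to 130.

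The hypothalamus and pituitary list had 16 tested genes of 21, and 0 were called in any dose comparison or for the slope. At 0.03 ppm 4 of 16 had a log2 change above 0, as had 46.6% of all genes (median -0.20, beside -0.019 for all genes). At 1 ppm 14 of 16 did, beside 48.3% of all genes (median 0.12, beside -0.0093). At 0.3 ppm 5 of 16 were above 0 (median -0.093, beside -0.0064), and for the mean of the doses 3 of 16 (median -0.073, beside -0.012). Of the neuron markers 0 were called, with 0 of 9 above the control at 0.03 ppm (median -0.35) and 6 of 9 at 1 ppm (median 0.016), and their share of counts lay between 0.0436% and 0.117% in control libraries, between 0.0380% and 0.0811% in those of 0.03 ppm and between 0.0452% and 0.0962% in those of 1 ppm. At 0.3 ppm 1 of 9 neuron markers was above the control (median -0.22). Control replicate 1 stood high: its neuron markers summed to 31495 normalised counts, against 13450 and 17331 in control replicates 2 and 3. At 0.03 ppm they summed to 17472, 11166 and 19520. Of the list, cpe had 5489 in control replicate 1 against 1923 and 2917, while nr4a1 had 946 against 4603 and 993. The counts of directions at 0.03 ppm are not given without that library. The part of these markers in the values of the list was not tested. Without the 4 libraries of replicate 3, 3 of 16 were higher at 1 ppm, with a median of -0.18. The smallest slope p belonged to pitx1, a homeobox gene of the anterior pituitary, which averaged 253 ± 39.5 normalised counts without PFOS and 340 ± 82.2 with 1 ppm (slope 0.12 per step, limma adjusted p = 0.95). It was not graded by dose: it had 356, 298 and 364 at 0.03 ppm and 289, 279 and 427 at 0.3 ppm. Only at 0.03 ppm did all 3 libraries lie above the controls, whose highest was 293, and 7.4% of all genes had no overlap there. ucn3l, an urocortin gene of the corticotropin-releasing family, followed pitx1 in the order of slope p. It had 7 to 12 normalised counts in the controls, 6, 3 and 7 at 0.03 ppm and 9 to 23 at 1 ppm. Because it met the filter only with libraries of 0.3 or 1 ppm counted, no test is given for it. The counts of directions above include it, and also pomcb, which met the filter only with exposed libraries counted. crha, crhr2 and tbx19 were among the 5 genes whose values were too low to test.

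The interrenal step was measured here in whole larvae. star (ENSDARG00000006137), whose product brings cholesterol to the first steroid enzyme, had 75, 138 and 96 normalised counts in control replicates 1, 2 and 3 and 81, 42 and 140 at 0.03 ppm. It had 98, 123 and 257 at 0.3 ppm and 152, 98 and 176 at 1 ppm. The lowest and the highest of the 12 libraries, 42 and 257, differed 6.12-fold, the widest range of the 10 genes, and all groups overlapped. At that mean, counting error alone gives a coefficient of variation of about 8.82%, and the observed one over the 12 libraries was 45.7%. The group means were 103 ± 32.1, 87.7 ± 49.3, 159 ± 85.5 and 142 ± 40.0 (SD, n = 3), with a log2 change of 0.46 at 1 ppm (95% interval from -0.50 to 1.42, limma adjusted p = 1). Leaving out 1 library or 1 replicate number put that change between 0.19, without replicate 1, and 0.94, without replicate 2. The slope was 0.23 per dose step (SE 0.143, adjusted p = 0.96). In rising order of the means, 0.03 ppm, control, 1 ppm and 0.3 ppm, no neighbours differed under the test.

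Of 18 further interrenal genes, 11 were tested and 0 were called in any comparison. cyp17a2 and cyp11a2 reached 10 normalised counts in no control library, so they were tested only through the exposed groups in which they were high. For this reason no count of directions over the tested genes is given, and both genes are described by their values, with no test. Of the others, cyp21a2, which encodes the steroid 21-hydroxylase, had 14, 27 and 14 normalised counts in control replicates 1, 2 and 3 and 31, 32 and 29 at 1 ppm (slope 0.28 log2 units per step, SE 0.128, limma adjusted p = 0.89). cyp17a1, which encodes a steroid hydroxylase and lyase, had 372, 334 and 418 in the control and 230, 343 and 202 at 1 ppm, and the groups overlapped (slope -0.22, adjusted p = 0.88). These 2 genes were named after their values were seen.

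cyp17a2, a steroid hydroxylase gene, had 1, 2 and 6 normalised counts in control replicates 1, 2 and 3, 5, 1 and 9 at 0.03 ppm, 9, 4 and 18 at 0.3 ppm and 13, 10 and 16 at 1 ppm. cyp11a2, which encodes the side-chain cleavage enzyme that starts steroid synthesis, had 4, 7 and 8 in the control, 9, 4 and 13 at 0.03 ppm, 11, 10 and 27 at 0.3 ppm and 14, 8 and 25 at 1 ppm. Its highest control library equalled the lowest of 1 ppm. For both genes, and for star, cyp21a2 and fdx1b, replicate 3 of 0.3 ppm was the highest of the 12 libraries, at 257 normalised counts for star, 46 for cyp21a2 and 43 for fdx1b, a mitochondrial ferredoxin. The ACTH receptor gene mc2r was between 0 and 2 in every library, and it was among the 7 genes not tested.

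**Figure D3:**
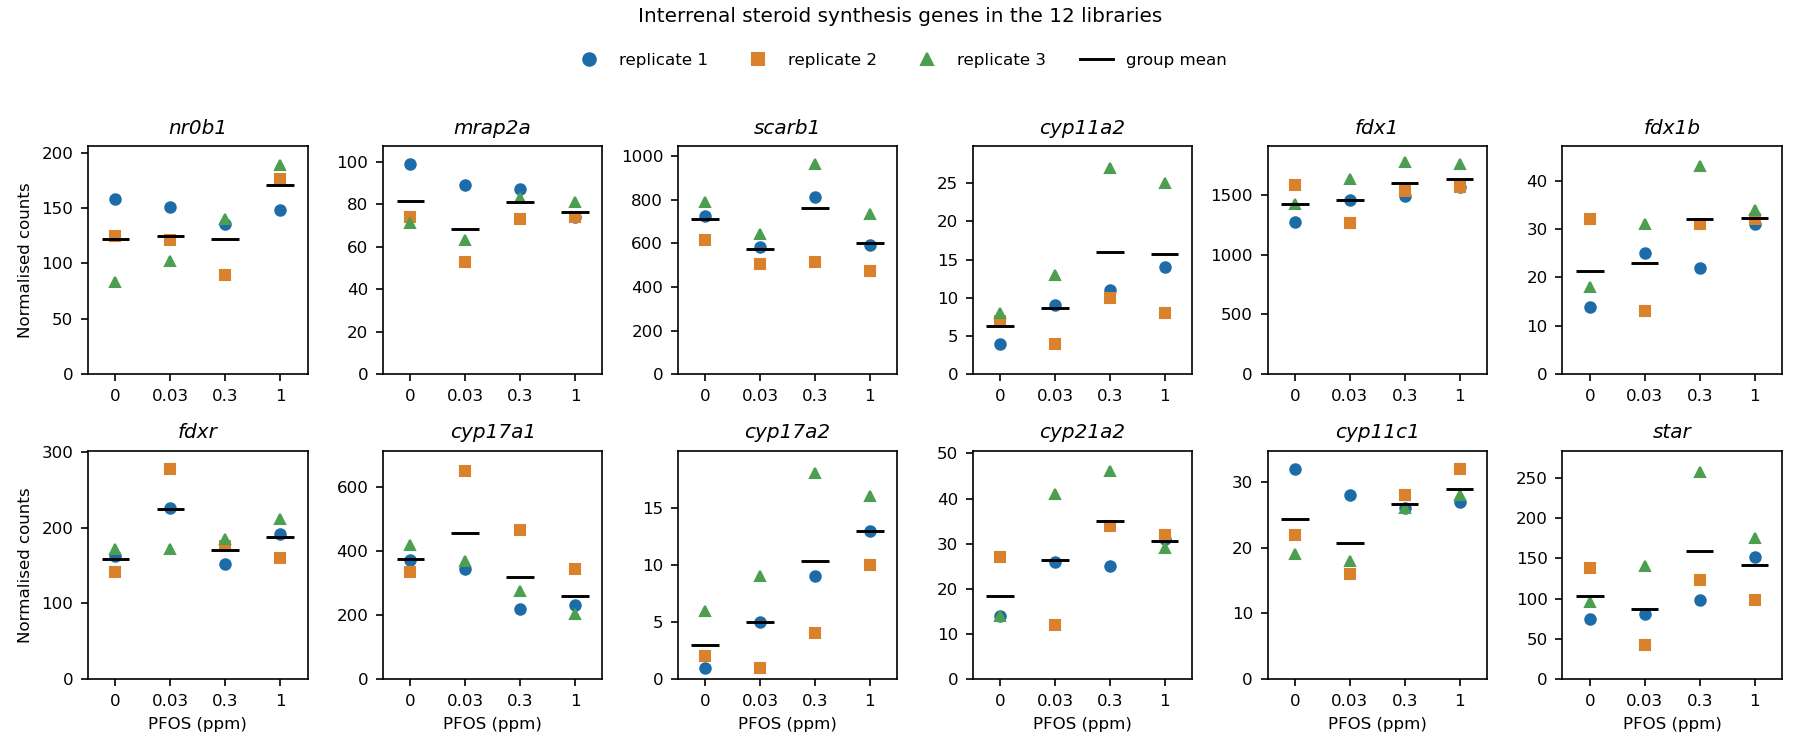
Normalised counts (vertical axes, from 0) of the 11 tested interrenal genes and of star against PFOS concentration in ppm, with 0 for the control. Points are libraries, coloured by replicate number, and black bars are group means; cyp17a2 has group means of 3.0, 5.0, 10.3 and 13 from control to 1 ppm, and the green triangle of 0.3 ppm is the highest point for star, cyp11a2, cyp17a2, cyp21a2 and fdx1b.

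The 2 receptors differed in how much they varied. nr3c1 (ENSDARG00000025032), the glucocorticoid receptor, had 1392, 1310 and 1345 normalised counts in control replicates 1, 2 and 3, 1147, 1509 and 1444 at 0.03 ppm, 1172, 1204 and 1326 at 0.3 ppm and 1298, 1110 and 1264 at 1 ppm. Its 12 libraries had a coefficient of variation of 9.37%, the smallest of the 10 genes. All 3 libraries of 1 ppm were below the 3 controls, and it was the only one of the 10 with no overlap at that dose, where 8.75% of all genes had none. The means were 1349 ± 41.1 in the control and 1224 ± 100.2 at 1 ppm (log2 change -0.14, 95% interval from -0.43 to 0.15, limma adjusted p = 1). Means of 1367 ± 193 at 0.03 ppm and 1234 ± 81.3 at 0.3 ppm completed the order, in which no neighbours differed under the test.

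nr3c2 (ENSDARG00000102082), the mineralocorticoid receptor, had 195, 121 and 167 normalised counts in control replicates 1, 2 and 3, 134, 183 and 165 at 0.03 ppm, 179, 131 and 107 at 0.3 ppm and 153, 96 and 85 at 1 ppm. At 1 ppm each library was below the control of its own number, while the groups overlapped, since 153 exceeded the lowest control, 121. The control averaged 161.0 ± 37.4, the 0.03 ppm group 160.7 ± 24.8, the 0.3 ppm group 139 ± 36.7 and the 1 ppm group 111 ± 36.5 (SD, n = 3). The slope was -0.19 log2 units per dose step (SE 0.0814, limma adjusted p = 0.88), and the log2 change at 1 ppm was -0.55 (SE 0.271, adjusted p = 1). Leaving out single libraries or a replicate number kept the slope between -0.25 and -0.11, with its weakest value without replicate 3. Between 0.03 ppm and the control the log2 change was 0.013 (adjusted p = 0.998), above 0 although the mean was slightly lower. No neighbours in the order of the means differed under the test.

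Receptor chaperones and cofactors, 20 genes that were all tested, held 0 calls in any comparison. At 1 ppm 9 of 20 were above the control and 11 below (median log2 change -0.020). ptges3a, which encodes the p23 co-chaperone of HSP90, averaged 1925 ± 177 normalised counts without PFOS and 2452 ± 269 with 1 ppm, with the 3 exposed libraries above the 3 controls (log2 change 0.35, SE 0.129, limma adjusted p = 0.89). The corepressor gene ncor1 had 2576, 1995 and 2129 in the control and 1947, 1650 and 1607 at 1 ppm, again without overlap (log2 change -0.36, adjusted p = 1). These 2 genes were named for the smallest slope p of the list. At 1 ppm 3 of 20 had no overlap with the control, beside 8.75% of all genes.

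Among the enzymes that inactivate cortisol, hsd11b2 (ENSDARG00000001975), which oxidizes cortisol to cortisone, had 837, 588 and 577 normalised counts in control replicates 1, 2 and 3, 637, 520 and 504 at 0.03 ppm, 833, 578 and 655 at 0.3 ppm and 846, 683 and 750 at 1 ppm. Within each replicate number the lowest library was that of 0.03 ppm and the highest that of 1 ppm, and replicate 1 was the highest library in every group. Between replicate numbers lay 50.8% of its log2 variance, between groups 42.6%, and 6.61% remained. The 3 libraries of 1 ppm were above the 3 of 0.03 ppm, as for 6.39% of all genes in either direction (log2 difference 0.46, SE 0.186, limma adjusted p = 0.997). Against the control, the change was -0.26 at 0.03 ppm (adjusted p = 0.998) and 0.20 at 1 ppm (adjusted p = 1), and the groups overlapped. Without control replicate 1 these changes were -0.081 and 0.38. Means from 554 ± 72.6 at 0.03 ppm through 667 ± 147 in the control and 689 ± 131 at 0.3 ppm to 760 ± 81.9 at 1 ppm had no neighbours that differed under the test.

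hsd20b2 (ENSDARG00000031336), whose enzyme reduces cortisone further in zebrafish, had 637, 683 and 665 normalised counts in control replicates 1, 2 and 3, 594, 804 and 601 at 0.03 ppm, 751, 778 and 575 at 0.3 ppm and 731, 676 and 651 at 1 ppm. All groups overlapped, and its means lay between 662 ± 23.2 in the control and 701 ± 110 at 0.3 ppm. The log2 change was -0.0038, 0.072 and 0.051 at 0.03, 0.3 and 1 ppm (limma adjusted p = 0.9998, 0.9998 and 1), and at 1 ppm its 95% interval ran from -0.29 to 0.39. At 0.03 ppm the mean, 666, was above that of the control although the log2 change was below 0.

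Further genes of cortisol inactivation and clearance, 11 tested of 16 names, of which 11 matched a gene in the files, gave 0 calls. Along the dose order 9 of 11 had a slope above 0, as had 49.3% of all genes (median 0.030 per step, beside -0.00099 for all genes). The 11 include srd5a2b, which met the filter only with exposed libraries counted. It had 4, 20 and 17 normalised counts in control replicates 1, 2 and 3 and 19, 29 and 8 at 1 ppm. srd5a2a, a steroid reductase gene, had 463, 592 and 537 normalised counts in the control and 695, 710 and 845 at 1 ppm without overlap (slope 0.20 per step, SE 0.0680, limma adjusted p = 0.73). sult2st2, a steroid sulfotransferase gene, had 1742, 1763 and 1650 in the control and 1898, 2177 and 2375 at 1 ppm, also without overlap (slope 0.12, adjusted p = 0.89). These 2 genes were named for the smallest slope p of the list. At 1 ppm 2 of 11 had no overlap with the control, beside 8.75% of all genes.

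The 3 receptor targets did not share 1 pattern. fkbp5 (ENSDARG00000028396), which encodes an HSP90 co-chaperone that lowers the receptor's affinity for cortisol and is used as a readout of receptor activity, had 2945, 1728 and 2665 normalised counts in control replicates 1, 2 and 3 and 3410, 3203 and 1687 at 0.03 ppm. It had 5357, 3399 and 2361 at 0.3 ppm and 4999, 3464 and 2521 at 1 ppm. Replicates 1 and 2 were above their own control at all 3 doses and replicate 3 was below its control at all 3, so the groups overlapped at each dose. The means were 2446 ± 637, 2767 ± 941, 3706 ± 1521 and 3661 ± 1251 (SD, n = 3). At 1 ppm the log2 change was 0.56, or 1.48-fold (95% interval from -0.21 to 1.33, limma adjusted p = 1), and at 0.3 ppm it was 0.55 (adjusted p = 0.9998). Without the libraries of replicate 3 the change at 1 ppm was 0.88, and without the 1 ppm library of replicate 1 it was 0.31. The slope was 0.21 per dose step (SE 0.105, adjusted p = 0.92).

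tsc22d3 (ENSDARG00000075666), the gene of the glucocorticoid-induced leucine zipper protein, had 2481, 2900 and 2297 normalised counts in control replicates 1, 2 and 3, 2272, 2342 and 2237 at 0.03 ppm, 2463, 3357 and 2984 at 0.3 ppm and 2883, 3006 and 3525 at 1 ppm. Each library of 1 ppm was above the control of its own number, yet the groups overlapped, since control replicate 2 was above 1 ppm replicate 1. Between groups lay 63.6% of its log2 variance, the largest share of the 10 genes. The means were 2559 ± 309 in the control, 2284 ± 53.5 at 0.03 ppm, 2935 ± 449 at 0.3 ppm and 3138 ± 341 at 1 ppm (SD, n = 3). Its slope was 0.12 per step (SE 0.0491, limma adjusted p = 0.84), and its log2 change at 1 ppm was 0.30 (95% interval from -0.023 to 0.61, adjusted p = 1). Without replicate 3 the change at 1 ppm was 0.13. In comparisons added after the values were seen, the 3 libraries of 0.03 ppm were below all 3 of 0.3 ppm and all 3 of 1 ppm. The log2 differences were 0.35 and 0.45 (limma adjusted p = 1 and 0.997). Of all genes, 4.87% had no overlap between 0.3 and 0.03 ppm and 6.39% between 1 and 0.03 ppm. tsc22d3 was the only member with an unadjusted p under 0.05 between 0.3 and 0.03 ppm, where 1.43% of all genes had one. Between 1 and 0.03 ppm it was 1 of 3 such members, with hsd11b2 and crhb, beside 2.95% of all genes.

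klf9 (ENSDARG00000068194), a Krüppel-like transcription factor that is a direct receptor target in zebrafish and mammals, had 1412, 958 and 1436 normalised counts in control replicates 1, 2 and 3, 1526, 1912 and 1379 at 0.03 ppm, 1678, 1804 and 934 at 0.3 ppm and 1684, 1272 and 859 at 1 ppm. Replicates 1 and 2 were above their control at all 3 doses and replicate 3 below it, as for fkbp5, and the groups overlapped. The mean was 1269 ± 269 in the control, 1606 ± 275 at 0.03 ppm, 1472 ± 470 at 0.3 ppm and 1272 ± 413 at 1 ppm. Log2 changes were 0.35, 0.18 and -0.026 (limma adjusted p = 0.998, 0.9998 and 1). At 0.03 ppm the change was 0.027 without replicate 2. Without replicate 3 the change at 1 ppm was 0.33, and without the 1 ppm library of replicate 1 it was -0.26.

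**Figure D4:**
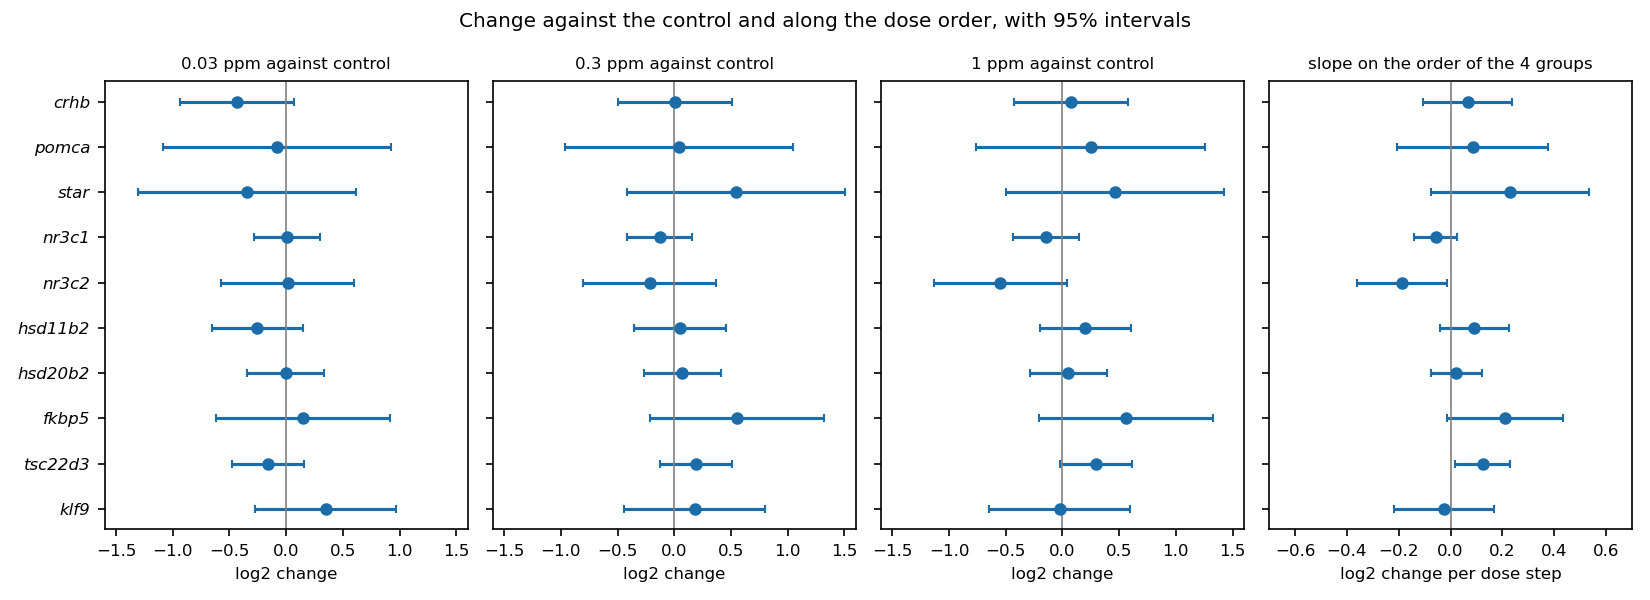
Log2 change of each of the 10 stress axis genes against the control at 3 doses, and slope per dose step (right panel), as points with 95% intervals from limma. The intervals of the dose comparisons all include 0; those of the slope exclude 0 for nr3c2 (-0.19) and tsc22d3 (0.12) before adjustment over all genes, with adjusted p of 0.88 and 0.84 after it.

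A list of 45 genes reported as glucocorticoid-regulated in fish or mammals, 42 of them tested, held the only calls of the 5 pathway lists, both lower. Like the other lists, it was chosen with earlier results of these data known. Calls were 1 of 42 at 0.03 ppm (0.0582% of all genes), 2 at 0.3 ppm (0.13%) and 2 at 1 ppm (0.139%). trim63a, a ubiquitin ligase gene of muscle that glucocorticoids raise in mammals, fell at every dose. Its control libraries had 1665, 1476 and 1997 normalised counts, against 994, 784 and 768 with 0.03 ppm, 783, 658 and 676 with 0.3 ppm and 736, 690 and 749 with 1 ppm (log2 change -1.01, -1.27 and -1.23, limma adjusted p = 0.034, 0.0060 and 0.010). fbxo32, the atrogin-1 gene of muscle atrophy, fell from 696, 462 and 1063 normalised counts without PFOS to 148, 162 and 151 with 0.3 ppm and 163, 122 and 147 with 1 ppm (log2 change -2.18 and -2.28, limma adjusted p = 0.041 and 0.029). At 0.03 ppm fbxo32 had 113, 347 and 168 (adjusted p = 0.18). No exposed library of either gene overlapped the controls, as for 0.963% of all genes that were lower in all 9 exposed libraries. The calls depended on the setting while the direction held: over 25 alternatives added for these genes after the values were seen, trim63a was called in 8 at 0.03 ppm, 21 at 0.3 ppm and 19 at 1 ppm, with log2 changes from -1.42 to -0.83 over the doses. fbxo32 was called in 3, 11 and 11 of the 25, from -2.65 to -1.51. Leaving out replicate 1 or replicate 3 throughout ended the calls of both genes at every dose. This was not particular to them, since 0 of all genes tested were then called at any of the 3 doses. At 1 ppm the call of trim63a was also lost without 1 ppm replicate 1 or 1 ppm replicate 3 (limma adjusted p = 0.050 in both) and without replicate 2 (0.051). A fit of only the 2 groups compared lost the calls of both genes at 0.3 ppm (limma adjusted p = 0.056 for each) and at 1 ppm (0.089 for each). Skeletal muscle markers took between 8.53% and 9.22% of counts in control libraries, between 5.96% and 8.53% in those of 0.03 ppm, between 7.27% and 10.0% in those of 0.3 ppm and between 7.38% and 8.88% in those of 1 ppm. At 0.03 ppm only replicate 1 reached the control range, barely, at 8.533% against 8.530% in the lowest control library. Replicates 2 and 3 of that dose had 7.09% and 5.96%. Also below all controls were replicate 3 of 0.3 ppm (7.27%) and replicates 1 and 3 of 1 ppm (7.38% and 7.70%). At 0.03 ppm 8 of 10 of these markers were below the control, with a median log2 change of -0.37. At 0.3 ppm 6 of 10 were below (median -0.042), and at 1 ppm 5 of 10 (median -0.12). The muscle creatine kinase genes ckma and ckmb, named after their values were seen, lay below all 3 controls in all 9 exposed libraries. The ranges were 79365 to 131007 against 154389 to 172862 normalised counts for ckma and 88894 to 126816 against 131140 to 165535 for ckmb. Neither was called. These 2 were the only ones of the 10 without such overlap, beside 1.33% of all genes in either direction. The part of muscle in the values of trim63a and fbxo32 was not tested.

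pdk2b, a kinase gene of glucose oxidation, was named after its values were seen. With a term for the replicate number it was also called lower at 1 ppm (limma adjusted p = 0.043, or 0.15 without the term). Its control libraries had 4432, 4711 and 4733 normalised counts, and every exposed library had between 2035 and 3604. igfbp1b, described below, had 229 to 357 in the control and 51 to 168 in the exposed libraries. With trim63a and fbxo32 they made 4 of 42 list genes without overlap between exposed and control libraries, beside 1.33% of all genes. Because the list was chosen with earlier results of these data known, that count is no test of the list. For the mean of the doses 3 of 42 were called with the term (0.349% of all genes) and 2 without it (0.188%). At 1 ppm 3 of 42 were called with the term (0.26% of all genes). Related genes of the list overlapped the control. igfbp1a had 1219 to 2697 normalised counts in the control and 658 to 1942 in the exposed libraries, and pdk4 had 882 to 1093 and 847 to 1385.

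The other 40 genes of that list were not called without that term. At 1 ppm 18 of 42 were above the control and 24 below (median log2 change -0.068, beside -0.0093 for all genes). The direction depended on the setting: over 25 alternatives the number above ran from 12 to 24. The median ran from -0.14, without control replicate 3, to 0.075, without replicate 2. For the slope 8 of 42 had an unadjusted p under 0.05, 2 above 0 and 6 below, beside 5.56% of all genes. The 2 above 0 were pck1 (0.20 per step) and g6pca.2 (0.27), enzymes of glucose production, and among the 6 below were the growth factor binding protein gene igfbp1b (-0.39) and the aminotransferase gene tat (-0.24), all 4 named after their values were seen. Liver markers took 0.532% to 0.817% of counts in the control and 0.903% to 0.988% at 1 ppm, without overlap. As summed normalised counts they overlapped, at 141144 to 248063 in the control and 224082 to 315293 at 1 ppm. Gene by gene, 10 of 10 liver markers were above the control at 1 ppm (median log2 change 0.67, beside -0.0093 for all genes). Of them 5 had no overlap with the control at 1 ppm, beside 8.75% of all genes. An unadjusted p under 0.05 was found for 4, beside 4.74% of all genes, and 0 were called. At 0.3 ppm 10 of 10 were above the control (median 0.30), and at 0.03 ppm 7 of 10 (median 0.13). The 10 include hpx, which met the filter only with exposed libraries counted. It had 9, 14 and 6 normalised counts in control replicates 1, 2 and 3 and 51, 55 and 4 at 1 ppm. The part of liver in the values of pck1 and g6pca.2 was not tested.

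With a term for the replicate number, 0 of the 10 stress axis genes were called at 0.03 ppm (0.0896% of all genes), 0.3 ppm (0.193%), 1 ppm (0.26%), for the mean of the doses (0.349%) or for the slope (0.0403%). At 1 ppm 3 of 10, nr3c2, fkbp5 and tsc22d3, then had an unadjusted p under 0.05 (8.64% of all genes), with limma adjusted p of 0.54, 0.51 and 0.56. For the slope the same 3 did (9.6% of all genes), with adjusted p of 0.43, 0.33 and 0.40. At 0.3 ppm only fkbp5 did (5.07% of all genes, adjusted p = 0.91), at 0.03 ppm only hsd11b2 (6.86%, adjusted p = 0.72) and for the mean of the doses only fkbp5 (7.77%, adjusted p = 0.63).

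The genes most like each member were sought among 17710 genes with a mean of at least 50 normalised counts, as a description over 12 libraries that share depth, dose and replicate number. For nr3c2 the nearest was the nuclear receptor coactivator gene ncoa1 (Pearson r = 0.94 on the log2 scale), then igf1ra (0.93). For pomca they were FLRT2 and scpp5 (both 0.95), for star myl9a (0.93) and apom (0.92), for klf9 CCDC120 (0.94) and smarcd3b (0.93), and for hsd11b2 ntng2a (0.94) and si:ch211-236l14.4 (0.89). fkbp5 had slc25a23a (0.89) and pik3r3a (0.88), nr3c1 zc3h4 (0.92) and APH1A (0.90), and crhb si:dkey-81l17.6 (0.90) and cd9a (0.89). hsd20b2 had atp10d (0.89) and znf982 (0.88), and tsc22d3 paics (0.84) and si:dkey-29l4.4 (0.83). No other member of the axis was among these neighbours.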

How the data were processed

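RNA-seq of 12 libraries was analysed. Per the file headers, the deposited values are normalised counts, rounded to whole numbers by the authors and recorded here as a score, because a count model needs unscaled counts. The submitters' processing notes list DESeq2 1.10.1, RSEM 1.2.28 and STAR 2.5.1b beside CASAVA, and build GRCz10, with no settings. Factors per library, estimated from the spacing of low values, were 0.802 to 1.303, and 0 pairs of libraries held identical values. limma 3.58.1 (R 4.3.3) was fitted to log2(value + 1) over all libraries, 1 coefficient per group, with a mean-variance trend, for genes with at least 10 in at least 3 libraries. Tests were two-sided and adjusted by Benjamini-Hochberg over all genes tested, with 0.05 as threshold. Fold changes on that scale understate those of low genes, and an exact test of 3 against 3 libraries cannot go below p = 0.1. The method was tested on simulated data. The slope coded the groups in order of dose.

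The members and lists were chosen with earlier results of these data known. Named were all members, list genes that were called, the 2 of smallest slope p per list, and the 2 nearest genes per member. Counting error covers reads only. Same-numbered libraries deviated together: the lowest correlation of deviations from group means was 0.145 for 0.3 ppm and the control and 0.119 for 1 ppm and the control, so these comparisons are also given with a replicate term, but 0.0776 for 0.03 ppm and the control. For 1 ppm and the control the highest correlation of different numbers was 0.204. Alternatives covered pseudocount, filter, scaling (equal totals, or trimmed mean of M-values), trend, library weights, replicate term and omission of libraries. For each dose against the control they also covered a fit of only the 2 groups compared. Figures used Python 3.11.15, NumPy 2.4.6, pandas 2.3.3 and matplotlib 3.10.9. No coordinates or sequences are given.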

Additional observations from a re-analysis of the deposited data

How the results depend on the processing

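The count of stress axis genes called was 0 in all 5 comparisons under every alternative run, the replicate block, library weights and every left-out library included. In some of these the count could not differ from 0. Without replicate 1, 0 of all 22055 genes tested were called in any comparison. Without replicate 3, 0 of 22069 were called at any dose or for the mean of 3 doses. The smallest limma adjusted p of any member was 0.085, for tsc22d3 at 1 ppm with library weights. That setting called 768 of 22320 genes at 1 ppm, where the fit without weights called 31. Direction turned for small changes. With library weights the log2 change was -0.045 for nr3c2 and -0.12 for fkbp5 at 0.03 ppm, -0.50 for pomca at 0.3 ppm, and -0.24 for pomca and 0.18 for hsd11b2 in the mean of 3 doses. With equal totals it was 0.055 for hsd20b2 at 0.03 ppm, -0.014 for crhb at 0.3 ppm and 0.019 for hsd11b2 in the mean of 3 doses. The cause was not tested.

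When 1 library or 1 replicate number was left out, the log2 change at 0.03 ppm ranged from -0.42 to 0.36 for pomca, -0.088 to 0.15 for nr3c1, -0.28 to 0.29 for nr3c2, -0.22 to 0.55 for fkbp5, -0.15 to 0.072 for hsd20b2 and -0.79 to 0.32 for star. At 0.3 ppm it ranged from -0.37 to 0.32 for pomca, -0.11 to 0.14 for crhb, -0.095 to 0.22 for hsd11b2, -0.011 to 0.21 for hsd20b2 and -0.19 to 0.58 for klf9. At 1 ppm the ranges were -0.099 to 0.50 for pomca, -0.17 to 0.40 for crhb, -0.023 to 0.092 for hsd20b2 and -0.26 to 0.33 for klf9. In the mean of 3 doses they were -0.28 to 0.32 for pomca, -0.27 to 0.065 for crhb, -0.094 to 0.17 for hsd11b2, -0.0085 to 0.12 for hsd20b2, -0.14 to 0.72 for star and -0.13 to 0.49 for klf9. For the slope they were -0.0054 to 0.19 for pomca, -0.0087 to 0.17 for crhb, -0.012 to 0.042 for hsd20b2 and -0.096 to 0.10 for klf9.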

Other observations

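Set against the sum of 9 other pituitary markers without pitx3, pomca stood higher at 1 ppm, while its own normalised counts overlapped the control. This ratio was chosen after the values were seen and is given with no test. By their own counts, 8.75% of all genes had no overlap with the control at 1 ppm. As a percentage of the summed normalised counts of the 9 other pituitary markers without pitx3, pomca was at 31.3%, 29.3% and 35.3% in control replicates 1, 2 and 3 and at 43.1%, 53.9% and 57.5% at 1 ppm, so the groups did not overlap. The range was 32.0% to 50.6% at 0.03 ppm and 25.3% to 44.0% at 0.3 ppm, both overlapping the control. The growth hormone gene gh1 carried much of that sum, with 177, 85 and 193 normalised counts in the control and 97, 53 and 142 at 1 ppm. The lack of overlap depended on the markers summed. With pitx3 kept, the sums were 489, 398 and 521 in the control and 459, 392 and 577 at 1 ppm. Against those sums, or with both pitx3 and gh1 left out, the share of pomca at 1 ppm overlapped the control.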
